A study of Homo sapiens with 15 samples.

Results

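IXA1 is a small molecule that the series labels as an activator of IRE1/XBP1s signalling, one arm of the unfolded protein response. Its effect on gene expression was taken from the libraries labelled IXA1 set against those labelled DMSO, the vehicle. Membership followed the library names in the count table: 2 libraries carried the IXA1 label and 3 the DMSO label, 5 of the 14 libraries analysed. The other 9 were from cells given IXA4 or IXA6, which bear the same activator label, or thapsigargin (Tg), which blocks calcium uptake by the endoplasmic reticulum (ER) and which the labels call a global activator of the response, with 3 libraries each. All were HEK293T cells, an established human embryonic kidney line, kept at their compound for 4 h, and total RNA was sequenced. The labels speak of 3 independent experiments, but 1 column of the count table bears a compound code that no sample title has and was not used, and the third IXA1 sample had no column under its own name. No dose was stated for any compound, so the compounds were compared at the same time and at unknown doses.

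The unfolded protein response adjusts the cell to misfolded protein in the ER through a set of membrane sensors. IRE1 (gene ERN1) splices XBP1 mRNA, and the factor made from the spliced form, XBP1s, raises genes for protein entry into the ER, folding, glycosylation, disposal and export. ATF6 is cut in the Golgi to release a factor that raises chaperone genes. PERK (gene EIF2AK3) phosphorylates eIF2alpha, which lowers translation and favours ATF4, the factor behind amino acid uptake and synthesis genes. Other kinases feed the same step, known as the integrated stress response (ISR). Counts per gene do not separate spliced from unspliced XBP1, and phosphorylation or cleavage of the sensors leaves no trace in them.

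Total counts were 15005091 and 15200091 in the IXA1 libraries, against 15331691, 15255571 and 15123547 in the DMSO libraries, over 13243 genes. Replicates varied around their group's mean with a biological coefficient of variation of 5.66%. All 8 listed markers of the HEK293T line were among the genes tested and 0 passed edgeR's test between IXA1 and DMSO (1 at an unadjusted p under 0.05, 0 by DESeq2), nor did any of the 3 tested genes out of 17 markers of blood, fibroblast, endothelial or liver cells. Guanine and cytosine (GC) content of transcripts had a rank correlation across genes of 0.06 with the log2 fold change of IXA1 against DMSO, a description of these libraries over genes that are not independent, and the median GC content was 50.5% in the genes higher than DMSO, 47.1% in those lower and 48.1% in all genes. Its part in the results was not tested beyond a correction whose values stand with the direct comparisons. In bulk RNA, a change per cell and a change in the share of cells that express a gene cannot be told apart.

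IXA1 moved a small set of genes, most of them upwards and most by less than 1.5-fold. Against DMSO, 241 genes (1.82% of those tested) were higher and 65 (0.491%) were lower at an adjusted p under 0.05 in edgeR's quasi-likelihood test. Of the higher genes, 9 reached 2-fold, 15 lay between 1.5- and 2-fold, 159 between 1.2- and 1.5-fold and 58 under 1.2-fold. Of the lower genes, the same classes held 4, 4, 47 and 10. The median log2 fold change of all genes was -0.0053. The scaling of the libraries centres most genes on no change, so this median cannot show a shift of all genes. Every called gene had both IXA1 libraries beyond all 3 DMSO libraries, as had 34.9% of all genes. Leaving out 1 library reduced the calls, to as few as 70 higher genes without IXA1 replicate 2 and 10 lower genes without IXA1 replicate 1. The calls that passed without each of the 5 libraries in turn were 49 higher genes and 3 lower ones, TXNIP, DGAT2 and MAT2A. Testing for a change beyond 1.2-fold left 19 higher and 3 lower genes. At an unadjusted p under 0.05 in edgeR's test, 1182 of the 13243 genes were higher and 874 lower. DESeq2 called 359 higher and 95 lower at its adjusted p.

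**Figure D1:**
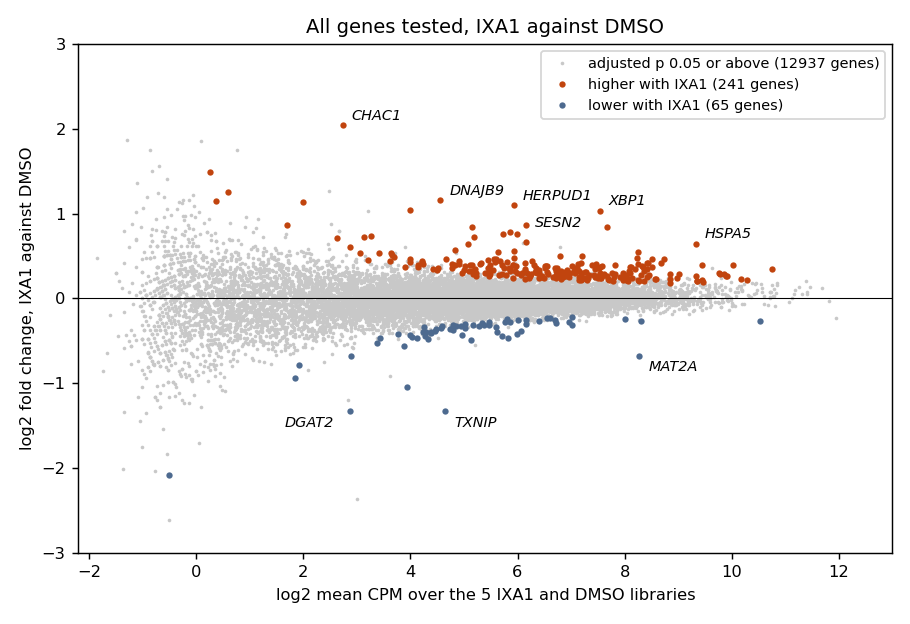
Every gene tested, with the log2 of the mean CPM (a gene's counts scaled to a fixed library total) over the 5 IXA1 and DMSO libraries on the horizontal axis and the log2 fold change of IXA1 against DMSO on the vertical axis; 6 genes lie outside the axes. The 241 higher genes (orange) outnumber the 65 lower genes (blue), CHAC1 stands highest among the named genes, and TXNIP and DGAT2 lie lowest among them.

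**Figure D2:**
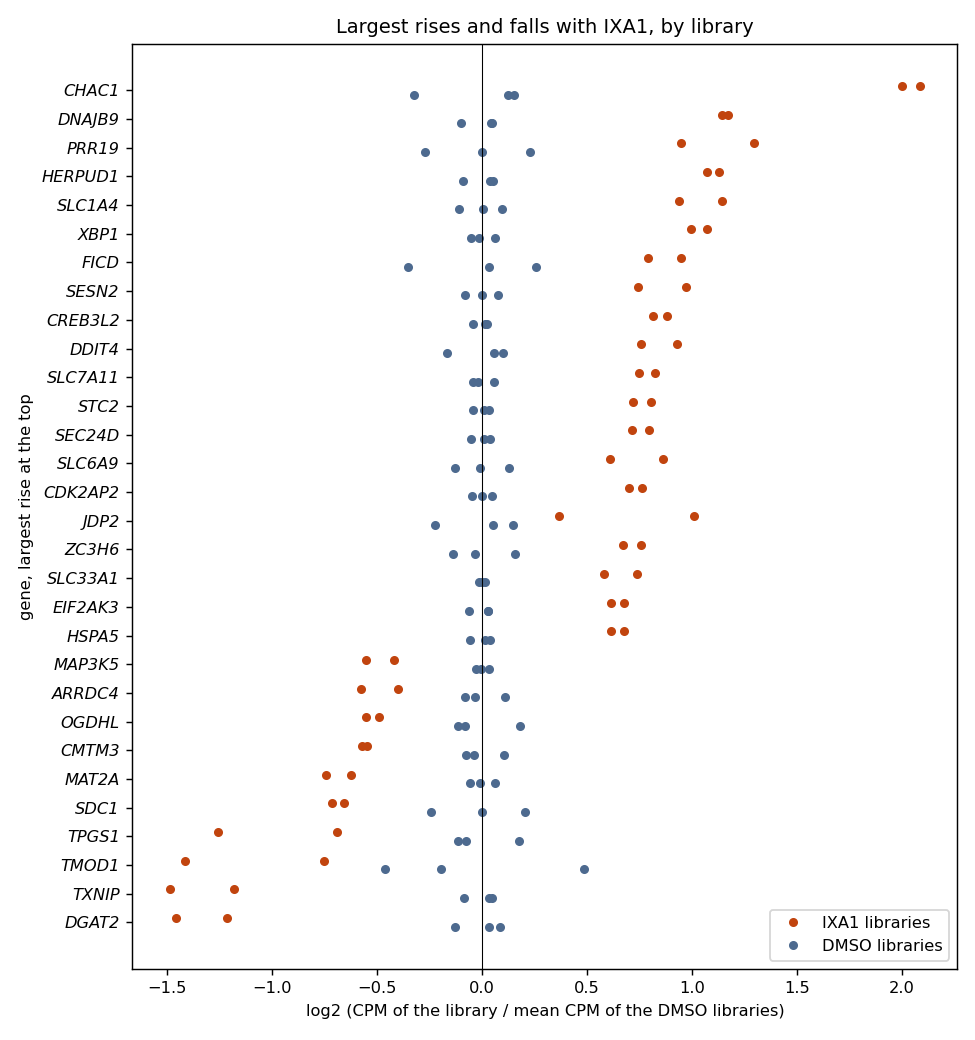
The 20 largest rises and 10 largest falls that pass the naming rule, with each library drawn as the log2 of its CPM over the mean CPM of the DMSO libraries. The IXA1 libraries (orange) lie apart from the DMSO libraries (blue) because the naming rule asked for no overlap, and the IXA1 pairs of JDP2, TPGS1 and TMOD1 are the most spread.

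Genes of the XBP1s list formed the first group that rose. Of 44 measured members of the XBP1s list, 20 were higher than in DMSO and 0 were lower, with a median log2 fold change of 0.23 over all 44 and 43 of them above 0. The share higher was 45.5%, against 1.82% of all genes tested. XBP1, whose mRNA IRE1 splices, had 275 and 261 CPM in IXA1 cells, against 126, 129.8 and 137 CPM in DMSO cells. The groups did not overlap. The difference was 2.05-fold (1.03 ± 0.05 log2, adjusted p = 9.14e-12), far beyond the spread of the replicates. DNAJB9 encodes ERdj4, an ER co-chaperone that also restrains IRE1, and it had 34.8 and 35.5 CPM in IXA1 cells, against 14.7, 16.2 and 16.3 CPM in DMSO cells. Its rise was 2.23-fold (1.16 ± 0.08 log2, adjusted p = 3.49e-09), with both IXA1 libraries above 16.3 CPM, the highest DMSO library. CREB3L2, a membrane-bound transcription factor of the ER, stood at 272 and 285 CPM in IXA1 cells and 157, 158 and 151 CPM in DMSO cells (0.85 ± 0.05 log2, adjusted p = 9.60e-11). FICD, the enzyme that adds and removes AMP on the chaperone BiP, had 4.22 and 4.71 CPM with IXA1 and 2.5, 2.91 and 1.91 CPM with DMSO (0.87 ± 0.19 log2, adjusted p = 0.0118). Its call did not hold without IXA1 replicate 1 or 2 or DMSO replicate 3 (adjusted p up to 0.169). SLC33A1 brings acetyl-CoA into the ER and rose by 0.66 ± 0.06 log2 (adjusted p = 3.61e-07), with 86.9 and 96.8 CPM in IXA1 cells and 58.7, 57.3 and 58 CPM in DMSO cells. The list also held members with little difference: SEC62, MCFD2 and PDIA5 had log2 values of -0.04, 0.02 and 0.04, and none passed the test. At an unadjusted p under 0.05, 31 were higher and 0 lower, and DESeq2 called 22 higher and 0 lower. Over all 13243 genes these counts were 1182 and 874 at an unadjusted p under 0.05, and 359 and 95 by DESeq2. Without IXA1 replicate 2, edgeR called 11 higher.

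Genes of the ATF6 list rose as well, and which factor raised them was not tested. Of 18 measured members of the ATF6 list, which includes XBP1, 13 were higher and 0 were lower, and the median log2 fold change was 0.33. That was 72.2% of the list, against 1.82% of all genes tested. HSPA5 encodes BiP, the main Hsp70 of the ER, and had 801 and 839 CPM in IXA1 cells and 529, 504 and 539 CPM in DMSO cells. Both IXA1 libraries lay above all DMSO libraries, a rise of 1.56-fold (0.65 ± 0.05 log2, adjusted p = 2.51e-08). HERPUD1, a ubiquitin-like protein of the ER membrane that serves disposal of misfolded protein, had the largest change in the list at 2.14-fold (1.10 ± 0.06 log2, adjusted p = 4.80e-11), with 87.9 and 91.5 CPM in IXA1 cells and 43, 43.4 and 39.3 CPM in DMSO cells. MANF, a secreted ER stress protein, gained 0.50 ± 0.05 log2 (adjusted p = 1.62e-06), PDIA4, a disulfide isomerase, 0.47 ± 0.06 (adjusted p = 1.27e-05) and HYOU1, an ER chaperone of the Hsp110 kind, 0.42 ± 0.05 (adjusted p = 3.17e-05). These were rises of 1.41-, 1.38- and 1.34-fold, smaller than that of HSPA5. CRELD2 and DNAJB11, at 0.08 and 0.12 log2, did not pass the test. At an unadjusted p under 0.05, 14 of the 18 were higher and 0 lower, DESeq2 called 13 higher and 0 lower, and without IXA1 replicate 2 edgeR called 9 higher.

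The stretches before the start sites of some genes from both groups hold letters that XBP1s and ATF6 are known to bind. The ER stress element (ERSE) was searched as CCAAT, any 9 bases and CCACG, its second form (ERSE-II) as ATTGG, any 1 base and CCACG, and the unfolded protein response element (UPRE) as TGACGTGG, whose reverse complement also contains CCACG. The amino acid response element (CARE) was searched as TGATGNAA, with N for any base. All were searched on both strands over 300 bases, 250 before the start and 50 after it, in the RefSeq promoters (GRCh38.p14) of 10714 genes that matched by symbol. Counts were made on another build, so these coordinates describe the promoters only. ERSE was found in 3.3% of promoters of the higher genes (7 of 212), in 35.3% of those of the ATF6 list (6 of 17) and in 0.14% of all promoters. UPRE was found in 2.83% of the higher genes' promoters (6 of 212), in 10.3% of the XBP1s list's (4 of 39) and in 0.943% of all. The shares of the lists count members whether or not they changed with IXA1, so they describe the lists and not the response. No test was made of these shares, and a match is a run of letters, not a measured binding site. The 250 bases before the start are shown for HSPA5, XBP1 and HERPUD1, members of the ATF6 list, and for STX5, a SNARE of ER-Golgi traffic that rose by 0.46 ± 0.07 log2 (adjusted p = 3.35e-04). Capitals mark ERSE in HSPA5 (chr9:125241344-125241593, minus strand, positions -66 to -48 from the start) and XBP1 (chr22:28800570-28800819, minus strand, -52 to -34), ERSE-II (-117 to -107) and CARE (-176 to -169) in HERPUD1 (chr16:56931892-56932141, plus strand), and UPRE (-16 to -9) in STX5 (chr11:62832052-62832301, minus strand).
HSPA5: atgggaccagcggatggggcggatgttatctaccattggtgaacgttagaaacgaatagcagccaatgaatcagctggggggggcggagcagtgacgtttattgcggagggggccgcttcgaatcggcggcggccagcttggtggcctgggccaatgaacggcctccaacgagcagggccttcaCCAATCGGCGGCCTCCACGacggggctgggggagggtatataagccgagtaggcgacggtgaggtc
XBP1: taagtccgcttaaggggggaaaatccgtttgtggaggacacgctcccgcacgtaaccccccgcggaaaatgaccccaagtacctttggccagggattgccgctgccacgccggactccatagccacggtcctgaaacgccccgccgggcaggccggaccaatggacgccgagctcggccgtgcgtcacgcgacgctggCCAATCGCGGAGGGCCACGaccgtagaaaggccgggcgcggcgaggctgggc
HERPUD1: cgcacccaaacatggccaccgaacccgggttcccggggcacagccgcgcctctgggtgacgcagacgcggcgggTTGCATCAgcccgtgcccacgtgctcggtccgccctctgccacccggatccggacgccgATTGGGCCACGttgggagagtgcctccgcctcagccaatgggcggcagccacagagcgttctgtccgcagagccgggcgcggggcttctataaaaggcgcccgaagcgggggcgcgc
STX5: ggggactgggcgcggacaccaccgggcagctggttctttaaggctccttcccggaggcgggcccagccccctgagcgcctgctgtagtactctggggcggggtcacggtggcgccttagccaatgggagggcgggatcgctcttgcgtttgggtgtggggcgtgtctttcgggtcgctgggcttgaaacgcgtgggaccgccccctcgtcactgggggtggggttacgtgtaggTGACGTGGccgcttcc

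By function, the rises ran along the secretory route. Lists share members, as HERPUD1 is in both the ATF6 and the ER-associated degradation lists, so their counts are not separate findings. Over all genes tested, 1.82% were higher and 0.491% lower. Protein entry into the ER had 7 of 24 members higher and 0 lower (median log2 fold change 0.19), led by SSR1, a subunit of the translocon-associated complex, with 354 and 373 CPM in IXA1 cells and 246, 261 and 274 CPM in DMSO cells (0.48 ± 0.06 log2, adjusted p = 9.87e-06). SEC61A1, the channel itself, gained 0.46 ± 0.06 log2 (adjusted p = 3.42e-05). It overlaps RUVBL1, whose own log2 value was 0.11. ER folding had 15 of 37 members higher and 0 lower (median 0.20), among them CANX, which encodes calnexin, a lectin chaperone of the ER, at 0.35 log2. The oxidases ERO1A and ERO1B, also in that list, had log2 values of -0.07 and -0.07 and did not pass. N-glycosylation had 3 of 38 higher (median 0.07), namely ALG2, STT3A and GANAB, which build, transfer and trim the glycan. STT3A had 397 and 388 CPM with IXA1 and 294, 317 and 316 CPM with DMSO (0.34 ± 0.05 log2, adjusted p = 1.93e-04). The call of ALG2 did not hold without IXA1 replicate 2 (adjusted p = 0.0789) and that of GANAB did not hold with any 1 of the 5 libraries left out (adjusted p up to 0.264).

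ER-associated degradation had 4 of 27 members higher and 0 lower (median 0.11), which were HERPUD1, SYVN1, SEL1L and VIMP, the last not called without IXA1 replicate 1 or 2 (adjusted p up to 0.105). SYVN1, the ubiquitin ligase at its centre, had 75.4 and 75.6 CPM in IXA1 cells and 53, 50.7 and 49.9 CPM in DMSO cells (0.56 ± 0.08 log2, adjusted p = 1.59e-04). It overlaps MRPL49, whose mean was 100.4 CPM in IXA1 cells and 98.8 CPM in DMSO cells. SEL1L, its partner, moved less, by 0.30 ± 0.05 log2 (adjusted p = 0.0015). EDEM1 and EDEM3, the mannosidases of the pathway, had 0.16 and 0.13 log2 and did not pass. Of the ER-associated degradation list 14.8% was higher, against 1.82% of all genes tested. ER-Golgi transport had 10 of 40 (25%) higher and 0 lower (median 0.13). SEC24D, a cargo adaptor of the COPII coat, led it with 68.1 and 72.3 CPM in IXA1 cells and 41.9, 42.7 and 40.1 CPM in DMSO cells, a rise of 1.69-fold (0.76 ± 0.07 log2, adjusted p = 7.32e-08). Its relatives SEC24A, SEC24B and SEC24C, at 0.07, 0.11 and 0.19 log2, did not pass. KDELR1, a receptor that returns ER proteins from the Golgi, gained 0.42 ± 0.07 log2 (adjusted p = 0.00106) and TMED10, a cargo receptor, 0.37 ± 0.05 (adjusted p = 5.06e-05). Without IXA1 replicate 1, 3 genes of protein entry and 5 of ER-Golgi transport were higher, and without IXA1 replicate 2, 7 genes of ER folding and 1 of N-glycosylation. At an unadjusted p under 0.05, 17 genes of protein entry, 21 of ER folding, 9 of N-glycosylation, 10 of degradation and 22 of ER-Golgi transport were higher, and 0, 1, 2, 1 and 0 were lower. DESeq2 called 11, 17, 4, 5 and 12 higher and 0 lower in each. Over all 13243 genes, 1182 were higher and 874 lower at an unadjusted p under 0.05, and DESeq2 called 359 and 95.

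**Figure D3:**
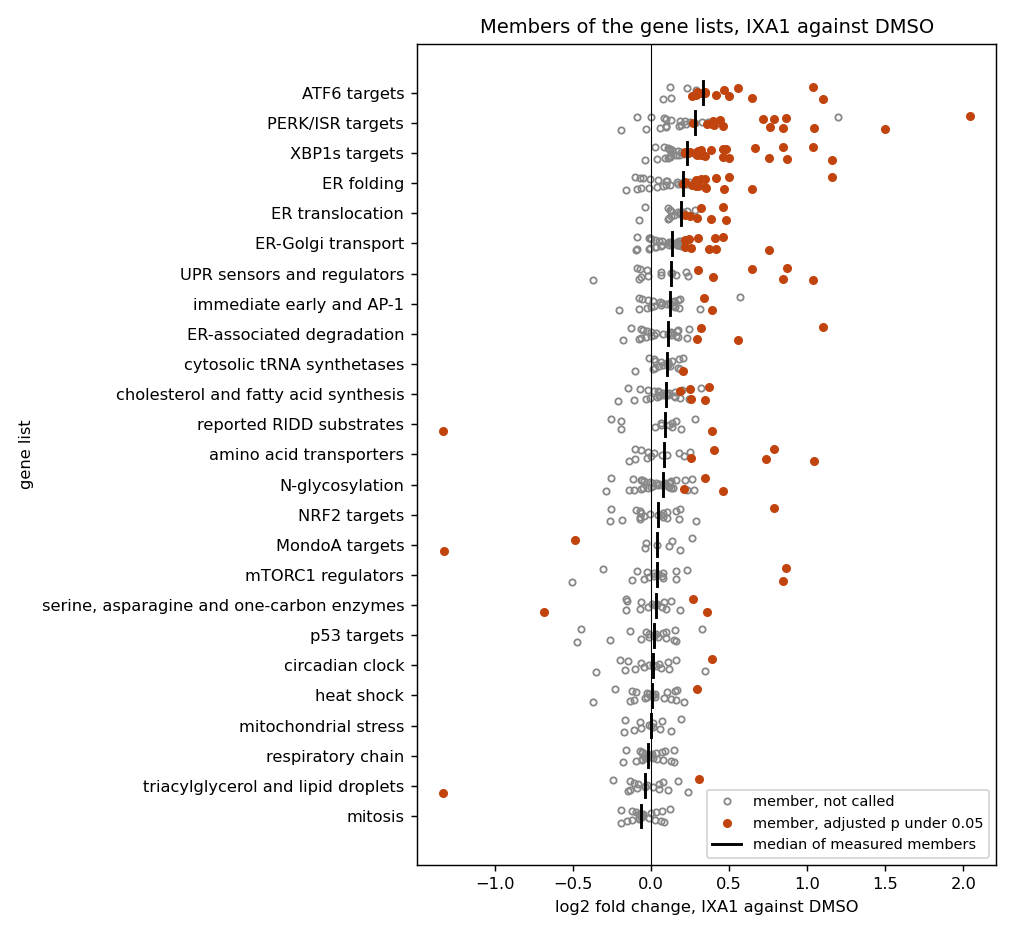
Log2 fold change of IXA1 against DMSO (horizontal axis) for the measured members of 25 gene lists (vertical axis, ordered by median); orange points passed the test, open points did not, and the bar is the median of the list. The ATF6, PERK/ISR and XBP1s lists have the highest medians (0.33, 0.28 and 0.23). The medians of mitosis, respiratory chain and p53 targets are -0.06, -0.02 and 0.02.

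Genes of the ISR were the other large group, and CHAC1 was the single largest named rise. Of 35 measured members of the PERK/ISR list, 15 were higher than in DMSO and 0 were lower, with a median log2 fold change of 0.28. The share higher was 42.9%, against 1.82% of all genes tested. CHAC1, an enzyme that degrades glutathione and a known ATF4 target, had 12.6 and 11.9 CPM in IXA1 cells, against 2.37, 3.24 and 3.29 CPM in DMSO cells. The rise was 4.12-fold (2.04 ± 0.14 log2, adjusted p = 1.87e-09) and the groups lay far apart. SESN2, sestrin 2, a leucine sensor that restrains mTORC1, stood at 105 and 89.5 CPM with IXA1 and 56.4, 53.5 and 50.7 CPM with DMSO (0.86 ± 0.09 log2, adjusted p = 7.81e-07). DDIT4, another restraint on mTORC1, stood at 51.3 and 45.5 CPM with IXA1 and 28, 28.9 and 24 CPM with DMSO (0.84 ± 0.09 log2, adjusted p = 2.02e-06). Both IXA1 libraries were above every DMSO library for each of these genes. STC2, stanniocalcin 2, a secreted glycoprotein, rose by 0.76 ± 0.07 log2 (adjusted p = 3.11e-07), with 87.2 and 82.2 CPM in IXA1 cells and 51.1, 48.5 and 50.3 CPM in DMSO cells. ATF4 itself changed less, with 848 and 771 CPM in IXA1 cells and 643, 615 and 588 CPM in DMSO cells (0.40 ± 0.06 log2, adjusted p = 2.76e-04). JDP2, an AP-1 family repressor, had 14.1 and 9.02 CPM with IXA1 and 7.74, 7.25 and 6.0 CPM with DMSO, and its log2 value of 0.72 ± 0.18 became 0.36 without IXA1 replicate 1. The call did not hold without IXA1 replicate 1 or DMSO replicate 2 or 3 (adjusted p up to 0.516). ADM2, a peptide hormone at 1.61 and 2.32 CPM with IXA1 and 0.32, 1.1 and 0.659 CPM with DMSO, was called at 1.5 ± 0.35 log2 (adjusted p = 0.0205), but not without IXA1 replicate 2 or DMSO replicate 1 or 3 (adjusted p up to 0.296).

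Other members of the list did not pass. DDIT3 encodes CHOP, the factor best known downstream of PERK, and had 8.11 and 6.17 CPM in IXA1 cells and 5.76, 5.89 and 5.93 CPM in DMSO cells, with ranges that did not overlap but a log2 value of 0.28 ± 0.13 that did not pass (adjusted p = 0.308, 95% interval 0.01 to 0.56). DDIT3 overlaps MARS, and its level is uncertain to that extent. TRIB3, a pseudokinase that CHOP and ATF4 raise, had a log2 value of -0.09, and PPP1R15A, the eIF2alpha phosphatase subunit, one of 0.23, and neither passed. The promoter of CHAC1 carries CARE, the letters that ATF4 dimers are known to bind, as do 17.9% of the list's promoters (5 of 28), 3.3% of the higher genes' (7 of 212) and 1.6% of all (171 of 10714). The list's share counts members whether or not they changed with IXA1. CARE was in 2.53% (2 of 79) of promoters of genes higher than with DMSO, IXA4 and IXA6. It was in 2.41% (2 of 83) of those higher than with DMSO and called against neither relative. Its 250 bases before the start (chr15:40953221-40953470, plus strand) are shown with CARE, read on the minus strand at positions -209 to -202, in capitals. At an unadjusted p under 0.05, 24 of the 35 members were higher and 0 lower, and DESeq2 called 16 higher and 0 lower. Without IXA1 replicate 1, edgeR called 10 higher.
CHAC1: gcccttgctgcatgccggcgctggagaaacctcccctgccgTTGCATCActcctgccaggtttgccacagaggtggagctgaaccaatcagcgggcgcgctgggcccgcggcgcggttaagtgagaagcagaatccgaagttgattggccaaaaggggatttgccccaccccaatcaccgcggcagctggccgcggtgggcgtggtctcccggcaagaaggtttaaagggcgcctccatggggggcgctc

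Some amino acid transporter genes rose, while few genes of the neighbouring pathways passed. Of 18 measured amino acid transporters, 5 were higher and 0 were lower, against 1.82% higher over all genes (median log2 fold change 0.08; 7 higher and 0 lower both at an unadjusted p under 0.05 and by DESeq2). SLC1A4, a carrier of neutral amino acids, had 24.8 and 21.5 CPM in IXA1 cells and 11.3, 10.4 and 12 CPM in DMSO cells (2.06-fold, 1.04 ± 0.10 log2, adjusted p = 1.98e-07). SLC7A11, the cystine carrier, had 75.5 and 79.8 CPM in IXA1 cells and 43.8, 44.5 and 46.9 CPM in DMSO cells (0.79 ± 0.08 log2, adjusted p = 7.81e-07). SLC6A9, a glycine carrier, had 13.7 and 11.5 CPM with IXA1 and 8.25, 7.51 and 6.92 CPM with DMSO (0.74 ± 0.12 log2, adjusted p = 4.85e-04), and overlaps CCDC24, so its level is uncertain to that extent. The IXA1 libraries of these 3 carriers lay above all DMSO libraries. SLC7A1, the arginine carrier, gained 0.40 ± 0.07 log2 (adjusted p = 8.91e-04). The fifth was SLC38A2, a glutamine carrier (0.26 ± 0.05, adjusted p = 0.01), not called without IXA1 replicate 1 or 2 (adjusted p up to 0.179). SLC3A2, the heavy chain that partners several carriers, had -0.002 and did not pass. Of 20 cytosolic tRNA synthetases 1 was higher, GARS, by 0.21 ± 0.05 log2 (adjusted p = 0.0293), a call that did not hold without IXA1 replicate 1 or 2 or DMSO replicate 1 or 2 (adjusted p up to 0.258). That single call is near the share over all genes, and DESeq2 called 4. Of 18 serine, asparagine and one-carbon enzymes, 2 were higher, ALDH1L2 and ASNS (0.36 and 0.27 log2), and 1 was lower, MAT2A. ALDH1L2 was not called without IXA1 replicate 1 (adjusted p = 0.0717) and ASNS was not called without IXA1 replicate 1 or 2 or DMSO replicate 1 or 2 (adjusted p up to 0.183), so that 0 of this list were higher without IXA1 replicate 1. PHGDH and SHMT2, of serine and glycine synthesis, had 0.10 and 0.08 log2 and did not pass.

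Among the sensors themselves, EIF2AK3 was the one that rose. It had 42.3 and 44 CPM in IXA1 cells and 26.4, 28.2 and 28.1 CPM in DMSO cells (0.65 ± 0.07 log2, adjusted p = 3.80e-06). ERN1, which encodes the IRE1 that splices XBP1, had 16.1 and 14.9 CPM with IXA1 and 15.9, 12.8 and 13.7 CPM with DMSO, overlapping groups whose difference of 0.14 ± 0.11 log2 did not pass (adjusted p = 0.588, 95% interval -0.08 to 0.35). ATF6 had 110.1 and 117 CPM with IXA1 and 104, 105 and 117 CPM with DMSO, also overlapping (0.06 ± 0.06 log2, adjusted p = 0.658, 95% interval -0.06 to 0.19). In the whole list of 20 sensors and regulators 6 were higher (30%, against 1.82% of all genes tested) and 0 were lower. The others that rose were XBP1, FICD, CREB3L2, ATF4 and DNAJC3, the last an inhibitor of PERK whose call did not hold without IXA1 replicate 2 (adjusted p = 0.194).

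Falls were fewer, and those of DGAT2, TXNIP and MAT2A passed without each library in turn. IRE1 can also cut other mRNAs at the ER membrane, which is called regulated IRE1-dependent decay (RIDD). DGAT2, an enzyme of triacylglycerol synthesis that is on the list of reported RIDD substrates, had 4.15 and 3.51 CPM in IXA1 cells, against 8.83, 10.2 and 9.88 CPM in DMSO cells. The IXA1 level was 0.398 of the DMSO level (-1.33 ± 0.19 log2, adjusted p = 1.76e-04), with no overlap between the groups. Of the other 13 measured substrates on that list none was lower and 1, PER1, was higher (0.39 ± 0.09 log2, adjusted p = 0.0166), a clock gene that was not called without IXA1 replicate 1 or 2 or DMSO replicate 3 (adjusted p up to 0.162). At an unadjusted p under 0.05, 3 of the 14 substrates were higher and 3 lower, DESeq2 called 1 higher and 0 lower, and with the GC correction 2 were lower. Over all 13243 genes, 1.82% were called higher and 0.491% lower, and 1182 and 874 were so at an unadjusted p under 0.05. BLOC1S1 and SPARC, often used to read RIDD, had 0.28 and 0.13 log2 and did not pass. In the list of triacylglycerol and lipid droplet genes, DGAT2 was the 1 lower of 19, AGPAT1, an acyltransferase, the 1 higher, not called with any 1 of the 5 libraries left out (adjusted p up to 0.22), and DGAT1, the enzyme for the same step as DGAT2, had -0.02 log2 and did not pass. DESeq2 gave DGAT2 no adjusted p.

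TXNIP, an inhibitor of thioredoxin and of glucose uptake, had 11.8 and 14.6 CPM in IXA1 cells, against 31.1, 33.8 and 34.1 CPM in DMSO cells. The IXA1 level was 0.4 of the DMSO level (-1.32 ± 0.11 log2, adjusted p = 3.28e-08), and the groups were far apart. TXNIP and its relative ARRDC4 are classic targets of MondoA, a glucose-sensing factor, and they were the 2 lower of 9 genes on the MondoA list, with 0 higher (2 higher at an unadjusted p under 0.05, 0 by DESeq2). Over all genes tested, 0.491% were lower and 1.82% higher. ARRDC4 had 26.5 and 29.9 CPM with IXA1 and 37.3, 38.6 and 42.6 CPM with DMSO (-0.48 ± 0.08 log2, adjusted p = 0.00148), a call that did not hold without IXA1 replicate 1 (adjusted p = 0.0907). The carbohydrate response element was searched as CACG, any 1 base, G, any 5 bases and the same first unit again, on both strands, and was found in 0.149% of all promoters (16 of 10714), in 1 of 52 promoters of the lower genes and in 1 of 212 of the higher genes. The match among the lower genes was TXNIP (chr1:145996580-145996829, minus strand), and the ARRDC4 window held no match. The TXNIP promoter is shown with positions -88 to -72 in capitals.
TXNIP: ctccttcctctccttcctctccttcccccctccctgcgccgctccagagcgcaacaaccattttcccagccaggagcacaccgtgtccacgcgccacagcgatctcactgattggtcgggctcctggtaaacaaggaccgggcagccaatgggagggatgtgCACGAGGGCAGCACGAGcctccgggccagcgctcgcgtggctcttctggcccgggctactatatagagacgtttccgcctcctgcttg

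MAT2A makes S-adenosylmethionine, the methyl donor of the cell. It had 218 and 237 CPM in IXA1 cells, against 381, 352 and 363 CPM in DMSO cells (-0.68 ± 0.07 log2, adjusted p = 2.39e-06), a level of 0.623 of that in DMSO with no overlap. MAP3K5, the stress kinase ASK1, had 15.4 and 16.9 CPM with IXA1 and 23.2, 22.5 and 22.1 CPM with DMSO (-0.48 ± 0.08 log2, adjusted p = 0.00137), and was not called without IXA1 replicate 1 (adjusted p = 0.0717). SDC1, a cell surface proteoglycan, was lower at -0.68 ± 0.17 log2 (adjusted p = 0.0288), but not without IXA1 replicate 1 or 2 or DMSO replicate 2 or 3 (adjusted p up to 0.211). TPGS1, a subunit of the tubulin polyglutamylase, was called at -0.94 ± 0.23 (adjusted p = 0.0304), but not with any 1 of the 5 libraries left out (adjusted p up to 0.368). CMTM3 at -0.56 ± 0.10 (adjusted p = 0.00337) was not called without IXA1 replicate 1 or 2 (adjusted p up to 0.0789), and OGDHL, a mitochondrial dehydrogenase subunit, at -0.52 ± 0.12 (adjusted p = 0.0238) was not called without IXA1 replicate 1 or 2 or DMSO replicate 1 (adjusted p up to 0.221). TMOD1, which caps actin filaments, was called at -1.04 ± 0.28 log2 (adjusted p = 0.0483), but not without IXA1 replicate 1 or 2 or DMSO replicate 1 or 3 (adjusted p up to 0.436). It overlaps TSTD2, which was called higher at 0.57 ± 0.14 (adjusted p = 0.0374) but not without IXA1 replicate 1, IXA1 replicate 2, DMSO replicate 1 or DMSO replicate 3 (adjusted p up to 0.341); the sum of both averaged 44.6 CPM in IXA1 cells and 43.1 CPM in DMSO cells. PRR19, called higher at 1.13 ± 0.26 log2 but not without IXA1 replicate 1 or 2 or DMSO replicate 1 or 3 (adjusted p up to 0.28), overlaps PAFAH1B3 in the same way, with sums of 34.2 CPM in IXA1 cells and 34.4 CPM in DMSO cells. Reads of such overlapping genes could have been divided differently between libraries, so the calls of TMOD1, TSTD2 and PRR19 are uncertain. MAT2A overlaps GGCX (mean 44.4 CPM with IXA1 and 47.7 CPM with DMSO). CMTM3 overlaps CMTM4 (90.0 and 91.2 CPM), and IDI1, KDELR1 and AGPAT1 also overlap measured genes. The levels of these genes are uncertain to that extent. CDK2AP2, a partner of cell cycle kinases, and ZC3H6, a zinc finger protein, completed the named rises at 0.73 ± 0.09 and 0.72 ± 0.16 log2 (adjusted p = 3.42e-05 and 0.0126), ZC3H6 not being called without IXA1 replicate 1 or 2 or DMSO replicate 2 (adjusted p up to 0.154).

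Fewer genes passed in other pathways. Over all genes tested, 1.82% were higher and 0.491% lower, and the single calls among heat shock genes and NRF2 targets are near those shares. Cholesterol and fatty acid synthesis had 5 of 31 members higher and 0 lower (median log2 fold change 0.09): IDI1 and INSIG1 gained 0.37 ± 0.07 and 0.35 ± 0.06 log2 (adjusted p = 0.00207 and 6.47e-04), and DHCR7, MSMO1 and SQLE 0.25, 0.25 and 0.19. The last 3 lost their calls when any 1 of the 5 libraries was left out, and IDI1 did not hold without IXA1 replicate 2 (adjusted p = 0.0542). Without IXA1 replicate 2 that list had 1 higher member. Heat shock genes had 1 of 23 higher, HSPB1 (0.30 ± 0.07 log2, adjusted p = 0.0323), which was not called with any 1 of the 5 libraries left out (adjusted p up to 0.212). There was 1 higher among 21 NRF2 targets, SLC7A11, already described; HMOX1 and NQO1, the usual NRF2 readouts, had -0.26 and -0.26 log2 and did not pass. Immediate early and AP-1 genes had 2 of 27 higher, ATF3 and JUND (0.39 and 0.34 log2), of which ATF3 did not hold without IXA1 replicate 1 (adjusted p = 0.163) and JUND did not hold without IXA1 replicate 1 or 2 or DMSO replicate 2 (adjusted p up to 0.193). In the lists of p53 targets (19 genes), mitosis (23), NF-kB (10), the respiratory chain (26) and mitochondrial stress (13) 0 genes passed edgeR's test in either direction, against 2.31% of all genes tested. DESeq2 called 0 in each of them. At an unadjusted p under 0.05 the counts higher and lower were 1 and 1 for p53 targets, 0 and 4 for mitosis and 2 and 0 for NF-kB. They were 1 and 2 for the respiratory chain, 1 and 1 for mitochondrial stress, and 1182 and 874 over all 13243 genes. With the GC correction 2 mitosis genes were lower and 1 NF-kB gene was higher. The median of the mitosis list was -0.06, with 6 of 23 members above 0.

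The compounds that share the activator label were set against IXA1 directly, without DMSO. IXA1 differed from IXA4 in 342 genes (2.58%; 252 higher and 90 lower in IXA1) and from IXA6 in 974 (7.35%; 600 higher and 374 lower). Without IXA1 replicate 1 these counts were 11 and 113. GC content had a rank correlation across genes of 0.17 with the log2 fold change against IXA4 and of 0.37 with that against IXA6. Its median was 55.2% in the 92 genes higher with IXA1 than with DMSO, IXA4 and IXA6, and 45.1% in the 16 lower. Genes higher than with DMSO but called against neither relative had 45.5%, the corresponding lower genes 53.6% and all genes 48.1%. With the correction for GC content the counts were 793 and 941, with 336 of the 342 and 638 of the 974 among them. Of the 44 XBP1s list members, 1 was higher and 1 lower than with IXA4 (median log2 difference -0.04), and 1 was higher and 2 lower than with IXA6 (median -0.08), shares near those over all genes. At an unadjusted p under 0.05 there were 4 higher and 5 lower against IXA4 and 2 higher and 9 lower against IXA6, and DESeq2 called 3 and 3 against IXA4 and 1 and 2 against IXA6. Over all 13243 genes, 1248 were higher and 1041 lower against IXA4 at an unadjusted p under 0.05, and 1610 and 1512 against IXA6. DESeq2 called 594 of all genes against IXA4 and 1176 against IXA6, in either direction. DNAJB9 had 34.8 and 35.5 CPM with IXA1, 36.7, 37.4 and 37.2 CPM with IXA4 and 41.9, 38.2 and 35.6 CPM with IXA6. Its difference of IXA1 from IXA4 was -0.08 ± 0.08 log2 (95% interval -0.24 to 0.08) and from IXA6 -0.13 ± 0.08 (95% interval -0.30 to 0.03), and neither passed. HSPA5 differed by -0.05 ± 0.05 from IXA4 (95% interval -0.15 to 0.06) and by -0.06 ± 0.05 from IXA6 (95% interval -0.17 to 0.05). The ATF6 list of 18 had 2 members higher and 0 lower than with IXA4, and 2 higher and 1 lower than with IXA6. Over all genes the shares called were 2.58% and 7.35%. DGAT2 had 4.15 and 3.51 CPM with IXA1, 4.12, 3.8 and 4.55 CPM with IXA4 and 3.51, 3.69 and 4.26 CPM with IXA6, with wide intervals of the log2 difference of -0.54 to 0.31 from IXA4 and -0.43 to 0.43 from IXA6. XBP1 was slightly higher with IXA1, by 0.20 ± 0.05 log2 over IXA4 (adjusted p = 0.0415) and 0.20 ± 0.05 over IXA6 (adjusted p = 0.0206). The first call did not hold without IXA1 replicate 1, IXA1 replicate 2, IXA4 replicate 2 or IXA4 replicate 3 (adjusted p up to 0.336), and the second did not hold without IXA1 replicate 1, IXA1 replicate 2 or IXA6 replicate 1 (adjusted p up to 0.24).

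Genes of the ISR differed between the compounds. Of the 35 measured members of the PERK/ISR list, 9 were higher with IXA1 than with IXA4 and 19 than with IXA6, 0 were lower in either comparison (20 and 25 higher and 0 lower at an unadjusted p under 0.05, 10 and 18 higher and 0 lower by DESeq2), and the median log2 differences were 0.22 and 0.31. The same comparisons over all genes called 2.58% and 7.35% and had medians of -0.0064 and -0.0073. With the correction for GC content the counts were 12 and 18, and without IXA1 replicate 1 they were 3 and 10. CHAC1 had 12.6 and 11.9 CPM with IXA1, 6.0, 4.92 and 5.3 CPM with IXA4 and 3.51, 2.35 and 2.99 CPM with IXA6. IXA1 exceeded IXA4 by 1.18 ± 0.13 log2 (adjusted p = 1.57e-05) and IXA6 by 2.05 ± 0.14 (adjusted p = 6.85e-09), and the IXA6 libraries overlapped the DMSO libraries. SESN2 had 105 and 89.5 CPM with IXA1, 59.4, 60.6 and 60.9 CPM with IXA4 and 50.3, 49.3 and 57 CPM with IXA6, so that IXA1 stood above both groups (0.69 ± 0.09 log2 over IXA4, adjusted p = 1.21e-04; 0.90 ± 0.09 over IXA6, adjusted p = 1.18e-06). DDIT4 exceeded IXA4 by 0.58 ± 0.09 log2 (adjusted p = 0.0016) and IXA6 by 0.82 ± 0.09 (adjusted p = 9.12e-06), the call against IXA4 not holding without IXA1 replicate 1 (adjusted p = 0.093). SLC1A4 was not called against IXA4 (0.25 ± 0.09 log2, adjusted p = 0.139, 95% interval 0.06 to 0.43). Against IXA6 it was higher by 0.38 ± 0.09 (adjusted p = 0.0133, 95% interval 0.20 to 0.57), but not without IXA1 replicate 1 or IXA6 replicate 1 (adjusted p up to 0.235). Amino acid transporters had 6 of 18 members higher with IXA1 than with IXA4 and 7 than with IXA6, and 0 lower (9 and 11 higher and 0 lower at an unadjusted p under 0.05, 7 and 7 higher and 0 lower by DESeq2); without IXA1 replicate 1 these counts were 0 and 4.

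**Figure D4:**
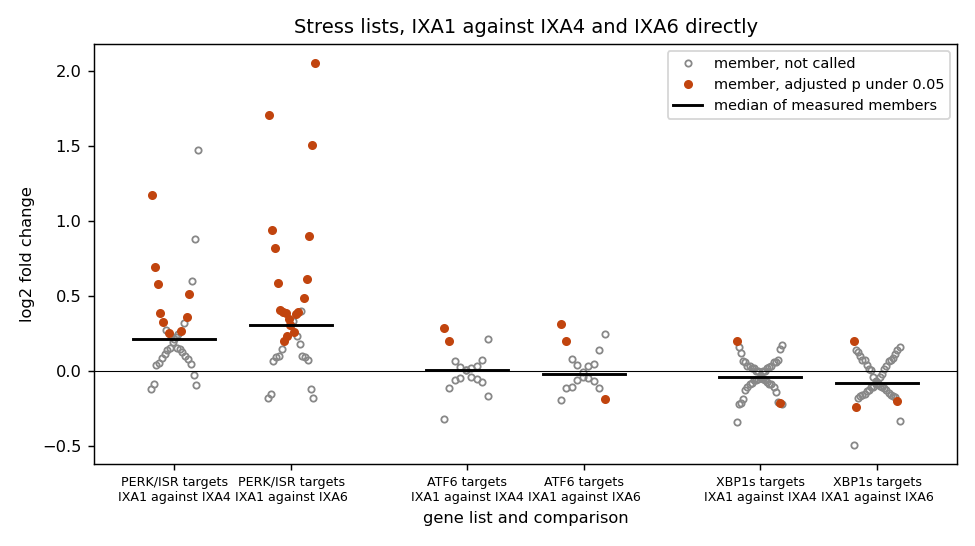
Log2 fold change (vertical axis) of IXA1 against IXA4 and against IXA6 for the measured members of the PERK/ISR, ATF6 and XBP1s lists (horizontal axis); orange points passed the test, open points did not, and the bar is the median. The PERK/ISR medians lie at 0.22 and 0.31, those of the ATF6 and XBP1s lists between -0.08 and 0.01.

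TXNIP and MAT2A were lower with IXA1 than with either relative. TXNIP had 11.8 and 14.6 CPM with IXA1, 20.7, 20.9 and 19.6 CPM with IXA4 and 27.5, 31.2 and 25.1 CPM with IXA6, and the 3 groups did not overlap. The log2 difference of IXA1 was -0.63 ± 0.11 from IXA4 (adjusted p = 0.00593) and -1.08 ± 0.11 from IXA6 (adjusted p = 2.87e-06). Without IXA1 replicate 1 the difference from IXA4 was -0.49 and did not pass (adjusted p = 0.137). MAT2A had 218 and 237 CPM with IXA1, 342, 400.0 and 362 CPM with IXA4 and 429, 437 and 382 CPM with IXA6. Its log2 difference was -0.69 ± 0.07 from IXA4 (adjusted p = 1.50e-05) and -0.87 ± 0.07 from IXA6 (adjusted p = 1.45e-07), and the IXA4 libraries spanned those of DMSO. The calls of the other named differences did not hold with a library less. Against IXA4, NOVA2, a neuronal splicing factor, TSTD2 and FAM65A were higher (0.88 ± 0.22, 0.71 ± 0.15 and 0.59 ± 0.11 log2) with IXA1, and TMOD1, GALNTL6, PALM2 and WDR90 were lower (-1.10 ± 0.28, -1.0 ± 0.20, -0.85 ± 0.18 and -0.75 ± 0.20). Each of these calls was lost without IXA1 replicate 1 and also without IXA1 replicate 2 (adjusted p up to 0.324 for TMOD1). NOVA2 and TMOD1 were also lost with any IXA4 library left out, WDR90 without IXA4 replicate 2 or 3, and TSTD2 and PALM2 without IXA4 replicate 3. The log2 difference itself moved little for NOVA2 (0.87 and 0.88 without replicate 1 and without replicate 2 of IXA1) and GALNTL6 (-0.98 and -1.01), and more for TMOD1 (-1.47 and -0.81). Against IXA6, PRR19, JDP2 and SLIT3, a guidance ligand, were higher (1.36 ± 0.27, 0.94 ± 0.18 and 0.85 ± 0.23 log2), and VGLL3, SLC16A14, a carrier, and the transcription factor SIM1 lower (-0.76 ± 0.17, -0.73 ± 0.18 and -0.72 ± 0.21). The calls of JDP2, SLIT3, VGLL3, SLC16A14 and SIM1 were lost without IXA1 replicate 1 (adjusted p up to 0.319 for SIM1) and those of PRR19, SLIT3, SLC16A14 and SIM1 without IXA1 replicate 2 (adjusted p up to 0.226 for SLIT3). SIM1 was also lost without IXA6 replicate 1, SLIT3 without IXA6 replicate 2 or 3 and SLC16A14 without IXA6 replicate 2. JDP2 was at 0.58 log2 without IXA1 replicate 1.

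Most genes of the stress lists stood higher with Tg, some of them far higher. IXA1 differed from Tg in 4485 genes (33.9%), with 2112 higher and 2373 lower in IXA1, and without IXA1 replicate 1 in 2949; GC content had a rank correlation across genes of 0.32 with this log2 fold change. All 18 ATF6 targets were lower with IXA1 than with Tg (median log2 difference -1.57), as were 32 of 35 PERK/ISR members (median -1.33) and 40 of 44 XBP1s targets (median -0.58). The log2 difference was small for ATF4 and STT3A (-0.29 and -0.30) and for GANAB (0.07). KDELR1 was higher with IXA1 than with Tg, by 0.30. HSPA5 had 801 and 839 CPM with IXA1 and 5099, 5415 and 5296 CPM with Tg (-2.68 ± 0.06 log2, adjusted p = 2.03e-20), while XBP1 had 275 and 261 CPM with IXA1 and 481, 479.6 and 494 CPM with Tg (-0.85 ± 0.05 log2, adjusted p = 8.24e-12). DDIT3 had 8.11 and 6.17 CPM with IXA1 and 112, 116 and 112 CPM with Tg (-3.99 ± 0.10 log2, adjusted p = 5.51e-19). DGAT2 lay the other way, at 4.15 and 3.51 CPM with IXA1 and 1.16, 0.801 and 0.407 CPM with Tg (2.27 ± 0.27 log2, adjusted p = 7.09e-07), and every Tg library lay below every other library. TXNIP had 11.8 and 14.6 CPM with IXA1 and 48.9, 42.8 and 40.6 CPM with Tg (-1.74 ± 0.11 log2, adjusted p = 8.24e-12), and the Tg libraries lay above all DMSO libraries. MAT2A had 218 and 237 CPM with IXA1 and 226, 201 and 192 CPM with Tg, and its difference of 0.14 ± 0.07 log2 did not pass (adjusted p = 0.141, 95% interval -0.01 to 0.29). BCAM, an adhesion protein, and HSPA2, an Hsp70 mainly of the testis, were higher with IXA1 than with Tg by 2.20 ± 0.16 and 1.6 ± 0.18 log2 (adjusted p = 1.39e-10 and 2.95e-07), and LBH, a transcription cofactor, and OSTN, a secreted peptide, were lower, at -3.95 ± 0.16 and -3.61 ± 0.15 (adjusted p = 3.49e-15 and 8.71e-15). RUSC1-AS1 and FAXDC2, also among the largest differences, were high in some libraries and low in others of the same group: RUSC1-AS1 had 2.06, 16.3 and 16.7 CPM with IXA4, and FAXDC2 9.96, 8.59 and 0.814 CPM with Tg.

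**Figure D5:**
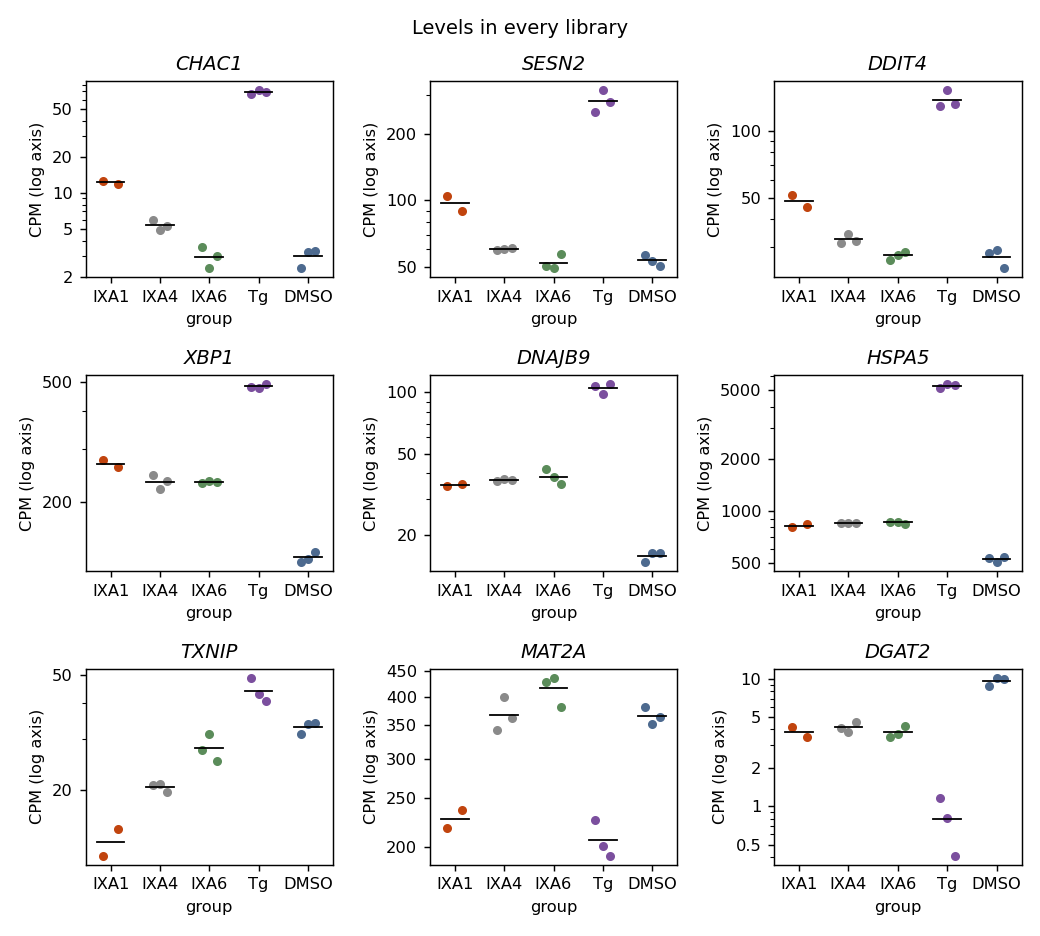
CPM on a log axis for 9 genes in every library of each group (points) with the group mean (bar). The IXA1 points of CHAC1, SESN2 and DDIT4 lie above those of IXA4, IXA6 and DMSO, those of DNAJB9, HSPA5 and DGAT2 lie near those of IXA4 and IXA6, and those of TXNIP and MAT2A lie below them.

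The authors' deposited table for IXA1 lists 412 genes higher and 141 lower at an adjusted p under 0.05, out of 9391 genes with an adjusted p. Of the genes called here, 198 of the 241 higher and 44 of the 65 lower genes are called in the same direction in the authors' deposited table, 0 have the opposite sign, and 20 have no adjusted p there, CHAC1 and DGAT2 among them. For CHAC1 the authors' deposited table gives a log2 fold change of 2.02 and for TXNIP -1.28. The tables rest on the same experiment, so this sets one processing beside another and is not a second measurement.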

How the data were processed

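RNA was sequenced from HEK293T cells given IXA1, IXA4, IXA6, Tg or DMSO for 4 h. The authors' deposited count table holds whole-number counts per gene symbol, made on GRCh37.p13 and used with DESeq, per the submitters' processing notes; the aligner, the counter and the use of strand are not stated. The authors' deposited IXA1 table gives a log2 fold change and an adjusted p-value per gene, per the file headers, and names neither its control nor its libraries. Of 15 count columns, 14 were matched to samples by name and 1 was not used; 22 rows whose symbol had become a date kept that name and were not named in the text. Within each group, no library was a repeat of another by a chi-square comparison of counts, and libraries of different groups were not compared in this way. P-values measure the spread between libraries, which may be technical where cultures were shared.

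Counts were tested with edgeR 4.0.16 in R 4.3.3 (TMM scaling, filterByExpr, which removed 0 genes, quasi-likelihood test, Benjamini-Hochberg adjustment over 13243 genes, threshold 0.05). The 5 groups shared 1 estimate of the spread, and the script was tested on simulated data. Levels are CPM over TMM-scaled library sizes, not corrected for gene length, with a value per library; ± after a log2 value is its standard error, and 95% intervals come from the same fit. Genes were named by rule: the 20 largest rises and 10 largest falls against DMSO at a mean of at least 2 CPM with no overlap, up to 6 called members per list, a panel of 12 genes, and the 5 largest differences each way against IXA4, IXA6 and Tg. Members that did not pass and are named as examples were chosen after their values were seen. CANX, which passed, was also named outside the rule. The comparison, the gene lists and the alternatives were chosen with earlier results of these data known. Alternatives were other scaling, DESeq2 1.42.0, other filters, each pair of groups alone, a replicate block, a minimum fold of 1.2, leaving out each library, and a GC correction. Promoters were matched by symbol for 83 of 90 named genes, and GC content came from the longest transcript of 98.4% of genes.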

Additional observations from a re-analysis of the deposited data

How the results depend on the processing

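The counts of genes higher and lower than DMSO and of genes different from IXA4, IXA6 and Tg were 241, 65, 342, 974 and 4485. Leaving out 1 library at a time gave 70 to 147 higher and 10 to 36 lower genes against DMSO, 11 to 166 different from IXA4, 113 to 1128 from IXA6 and 2949 to 4778 from Tg; the lowest counts came without IXA1 replicate 2 for the higher genes and without IXA1 replicate 1 for the others. With 1 IXA1 library left, that library was assumed to vary like the other groups. DESeq2 gave 359 higher and 95 lower genes and 594 different from IXA4. Fitting each pair of groups alone gave 471 and 177 against DMSO and 1156 against IXA4. The GC correction, chosen after seeing the data as were the settings for lists against IXA4 and IXA6, gave 514, 191 and 793, with all 241 and 65 genes among them. Testing beyond 1.2-fold left 19, 3, 4, 9 and 1199. Why these counts moved was not tested. RLE scaling and a mean of at least 2 CPM gave counts within 1.5 times of the main ones and changed no named call. The run without a filter repeated the main fit, because filterByExpr removed 0 genes, and tests nothing further.

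No pairing by replicate number was seen: deviations of same-numbered libraries correlated between -0.20 and 0.25 (median -0.04, 26 pairs). Those of differently numbered libraries correlated between -0.34 and 0.31 (median 0.02, 52 pairs). Deviations were taken from the means of 2 or 3 libraries, so the pairs are not independent and a weak pairing could be missed. With the replicate block the counts were 202, 45, 339, 927 and 4268, and the calls of PRR19, TMOD1, TPGS1, DHCR7, MSMO1 and SQLE against DMSO and of WDR90 against IXA4 did not hold. None of the 102 log2 fold changes of genes chosen by the naming rule changed direction under the alternatives run for them; genes named as examples that did not pass were not rerun. By DESeq2, 84 of the 102 stayed the same in call and direction, and TMOD1 against DMSO lost its call. The others, DGAT2 against DMSO among them, had no adjusted p from DESeq2 and were not compared under it. SIM1 against IXA6 was not called with 2 groups alone or the GC correction. Of 69 called genes named against DMSO, 35 lost the call without at least 1 library. Precision is limited by 2 IXA1 libraries of 15005091 and 15200091 counts: small changes that did not pass were not detectable here, which does not show that they were absent.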
